A study of Mus musculus with 8 samples.

Results

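The 10 genes described here are 8 genes of the lysosome and of autophagy, Ctsa, Ctsb, Ctsd, Ctsl, Ctsz, Lamp1, Lamp2 and Sqstm1, together with Tfeb and Tfe3, which encode transcription factors of the MiT-TFE family. They were looked up by name in the deposited expression table of 12528 genes, with earlier results of these data known when the names were chosen, and all 10 were listed there and among the 12494 genes tested. The study profiled poly(A) RNA of mouse embryonic fibroblasts (MEFs) from WT mice and from Cav1KO littermates, which lack caveolin-1, the main coat protein of caveolae. Each genotype was cultured at low confluence on a stiff or a soft polyacrylamide gel and collected 24 h after seeding, giving 2 libraries for each of 4 groups, called WT stiff, Cav1KO stiff, WT soft and Cav1KO soft after genotype and gel. No further agent was applied in any group, and the MEFs were immortalized. The number of cell lines behind each genotype was not given in the sources used here, so genotype and cell line cannot be told apart. Nothing states that the 2 libraries of a group came from separate cultures, so p-values measure only the spread between these RNA samples, which may be technical.

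Lysosomes are acidic organelles in which proteins, lipids and sugars delivered by endocytosis and autophagy are degraded. Cathepsins are their proteases, and LAMP proteins line their membrane. TFEB and TFE3 bind E-box motifs in many lysosomal and autophagy genes, and their activity is set largely by phosphorylation through mTORC1 and by movement between cytoplasm and nucleus, which an RNA level does not report.

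Every member is a protein-coding gene in GENCODE M21 on GRCm38. The regulators are Tfeb (ENSMUSG00000023990, chr17:47737030-47792419, plus strand) and Tfe3 (ENSMUSG00000000134, chrX:7762560-7775202, plus strand). The cathepsin genes are Ctsa (ENSMUSG00000017760, chr2:164832873-164841032, plus), Ctsb (ENSMUSG00000021939, chr14:63122462-63145923, plus), Ctsd (ENSMUSG00000007891, chr7:142375911-142388038, minus), Ctsl (ENSMUSG00000021477, chr13:64359337-64370890, minus) and Ctsz (ENSMUSG00000016256, chr2:174427493-174439039, minus). The membrane and autophagy genes are Lamp1 (ENSMUSG00000031447, chr8:13159161-13175338, plus), Lamp2 (ENSMUSG00000016534, chrX:38401357-38456454, minus) and Sqstm1 (ENSMUSG00000015837, chr11:50199366-50210827, minus).

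Because TFEB and TFE3 read E-boxes, the promoter windows of the members were searched for CACGTG, the E-box, and for TCACGTGA, an extended form that contains it; each reads the same on both strands. A window held 250 bases before and 50 bases after a RefSeq transcription start (GRCm38.p6), and 9 of the 10 members matched one. Ctsb did not. The E-box letters were present for 4 of these 9 genes, against 7.15% of all 32851 promoter windows and 8.093% of 27025 genes. The extended letters were present for 2 of the 9 genes, against 0.9741% of windows. The 4 windows with a match are shown for their number and placing of E-boxes, 5′ to 3′ on the gene's strand, with each CACGTG in capitals.
Ctsa, the downstream of 2 starts, chr2:164833523-164833822, plus strand: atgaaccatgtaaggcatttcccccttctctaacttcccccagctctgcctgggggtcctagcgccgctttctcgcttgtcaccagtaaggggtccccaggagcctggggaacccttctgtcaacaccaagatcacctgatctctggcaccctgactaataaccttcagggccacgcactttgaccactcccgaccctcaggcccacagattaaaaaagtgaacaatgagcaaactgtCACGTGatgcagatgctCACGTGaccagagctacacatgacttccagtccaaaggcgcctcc
Ctsd, chr7:142387778-142388077, minus strand: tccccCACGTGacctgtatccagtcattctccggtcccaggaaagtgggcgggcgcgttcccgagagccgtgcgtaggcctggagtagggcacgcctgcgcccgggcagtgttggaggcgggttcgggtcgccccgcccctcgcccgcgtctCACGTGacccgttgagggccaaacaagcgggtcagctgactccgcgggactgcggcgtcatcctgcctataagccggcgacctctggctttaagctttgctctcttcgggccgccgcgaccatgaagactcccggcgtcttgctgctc
Lamp1, chr8:13158911-13159210, plus strand: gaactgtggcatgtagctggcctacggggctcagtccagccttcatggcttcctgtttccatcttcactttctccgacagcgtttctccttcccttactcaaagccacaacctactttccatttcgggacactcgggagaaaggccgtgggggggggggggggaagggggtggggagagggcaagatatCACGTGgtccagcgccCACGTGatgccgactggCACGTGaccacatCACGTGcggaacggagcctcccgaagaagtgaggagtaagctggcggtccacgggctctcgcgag
Ctsl, chr13:64370471-64370770, minus strand: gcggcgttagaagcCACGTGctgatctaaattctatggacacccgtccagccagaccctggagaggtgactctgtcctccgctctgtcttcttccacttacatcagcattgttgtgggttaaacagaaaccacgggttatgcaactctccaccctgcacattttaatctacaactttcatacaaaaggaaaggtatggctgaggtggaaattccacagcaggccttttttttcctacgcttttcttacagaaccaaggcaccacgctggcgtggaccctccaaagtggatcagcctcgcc
Lamp1 held the most, with 4 E-boxes that began 61, 45, 28 and 15 bases before the start. Ctsd held 2, beginning 245 and 98 bases before it, of which the nearer was an extended E-box. Both matches of Ctsa were extended forms, on either side of the start. Ctsl held 1, which began 236 bases before the start. No match stood in the windows of Tfeb, Tfe3, Ctsz, Lamp2 and Sqstm1. A match is a run of letters and was not tested as a binding site.

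**Figure D1:**
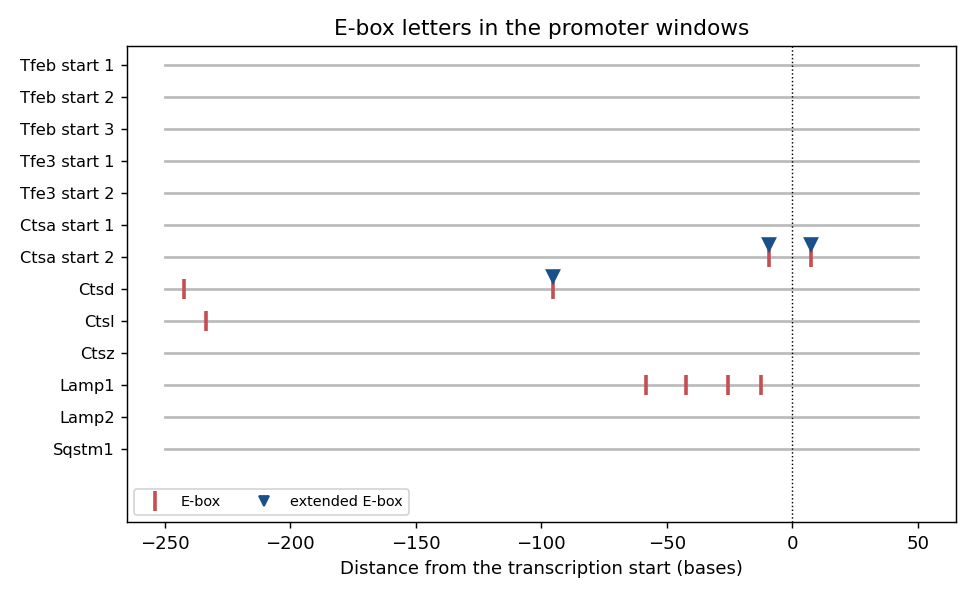
Position of E-box letters (red ticks) and extended E-box letters (blue triangles) in each promoter window of the 9 members with one, against distance from the transcription start in bases. Matches lay in the windows of Ctsa, Ctsd, Ctsl and Lamp1, with 4 in Lamp1.

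Each library held 17089836 to 19944952 reads on listed genes, recovered from the deposited TMM-normalized CPM (read counts scaled to library size), and the 10 most abundant genes took 7.171 to 9.103% of the signal. The targeted gene Cav1 ranged from 949.8 to 1157 CPM in WT and did not exceed 0.4114 CPM in any Cav1KO library. Fibroblast markers were listed for 8 of 10 genes (not Thy1 or Lum), with summed levels of 8796 to 9035 CPM in WT stiff, 11180 to 11380 in WT soft, 4397 to 5530 in Cav1KO stiff and 13300 to 13340 in Cav1KO soft. None of 7 epithelial markers was listed. Of 12 macrophage markers 3 were listed, Cd68, Cd14 and Cd74, and the defining genes Ptprc, Adgre1, Csf1r and Itgam were not. Their summed level was 26.62 to 31.01 CPM in WT stiff, 40.09 to 44.59 in WT soft, 117 to 120.1 in Cav1KO stiff and 146.9 to 153.3 in Cav1KO soft. Both the fibroblast and the macrophage sums thus moved with substrate and genotype, and their part in the results was not tested. In bulk RNA, a change in the number of cells of a type and a change in RNA per cell cannot be told apart.

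Neither regulator passed the test between substrates in either genotype. Tfeb was at 9.893 and 11.06 CPM in WT stiff, 11.36 and 10.05 in WT soft, 10.71 and 11.13 in Cav1KO stiff, and 11.03 and 9.925 in Cav1KO soft. The 4 groups overlapped throughout. On log2(CPM + 1), the stiff minus soft difference for Tfeb was -0.03 in WT (95% interval -0.32 to 0.26, limma adjusted p = 0.8745) and 0.06 in Cav1KO (-0.23 to 0.34, adjusted p = 0.7374). These values rested on 182 to 211 reads a library, so the intervals are wide.

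Tfe3 was at 74.98 and 72.74 CPM in WT stiff, 67.06 and 69.26 in WT soft, 73.32 and 69.66 in Cav1KO stiff, and 64.88 and 63.92 in Cav1KO soft. In each genotype both stiff libraries lay above both soft ones, by a small margin. The stiff minus soft difference for Tfe3 was 0.11 in WT (95% interval -0.05 to 0.28, adjusted p = 0.2184) and 0.15 in Cav1KO (-0.02 to 0.31, adjusted p = 0.1091). The Cav1KO value reached 0.23 with an adjusted p of 0.02348 when each library was centred on its median gene. Neither regulator passed the test for genotype on either substrate, with log2 differences (Cav1KO minus WT) from -0.08 to 0.06. Per kilobase of transcript, Tfe3 was the more abundant, at a mean of 21.2 CPM per kilobase over the 8 libraries against 4.545 for Tfeb.

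Each of the 8 lysosome and autophagy genes had less RNA on the stiff gel than on the soft gel in WT MEFs, and so 8 of the 10 members were called lower and none higher. Among all genes tested, 26.3% were called lower and 22.1% higher in this comparison. The median log2 difference of the 8 genes was -1.20, against -0.02 for all genes. Libraries of the 2 substrates did not overlap for any of the 8, nor for Tfe3, which was not called. The share of all genes without overlap was not counted. The summed level of the 8 was 2281 and 2307 CPM in WT stiff against 5320 and 4778 CPM in WT soft.

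Ctsb, a cysteine cathepsin, was at 306.3 and 279.3 CPM in WT stiff and 863.6 and 757.8 CPM in WT soft. The 2 soft libraries differed from each other by more than the stiff ones did, yet the gap between substrates was far larger. Its mean was 2.769-fold higher on soft (log2 difference -1.46, SE 0.09, adjusted p = 3.851e-05). Ctsa encodes protective protein/cathepsin A, a carboxypeptidase that also stabilizes lysosomal glycosidases. It was at 107.5 and 109.1 CPM in WT stiff and 306.2 and 273.4 CPM in WT soft, a mean 2.675-fold higher on soft (log2 difference -1.41, SE 0.07, adjusted p = 2.565e-05). Ctsl, another cysteine cathepsin, was at 361.8 and 398.7 CPM in WT stiff and 1099 and 913.9 CPM in WT soft, or 2.647-fold higher on soft (log2 difference -1.40, SE 0.10, adjusted p = 5.092e-05). The 3 log2 differences lay between -1.46 and -1.40.

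The aspartic protease gene Ctsd was at 225.7 and 214.4 CPM in WT stiff and 467 and 452.5 CPM in WT soft, a smaller difference (log2 -1.06, SE 0.07, adjusted p = 3.666e-05). Ctsz, a carboxypeptidase of the cysteine class, moved least of the 8. It was at 111.1 and 106.4 CPM in WT stiff and 139.4 and 136.3 CPM in WT soft, 1.268-fold higher on soft (log2 difference -0.34, SE 0.07, adjusted p = 0.003172).

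Lamp2, whose product takes part in the fusion of autophagosomes with lysosomes, was at 310.9 and 324.1 CPM in WT stiff and 878 and 730.8 CPM in WT soft. That was 2.534-fold higher on soft (log2 difference -1.33, SE 0.09, adjusted p = 4.168e-05). Its relative Lamp1 was at 496.9 and 490.6 CPM in WT stiff and 816.8 and 783.8 CPM in WT soft, 1.621-fold higher on soft (log2 difference -0.70, SE 0.07, adjusted p = 0.0001439). Sqstm1 encodes p62, a receptor that carries ubiquitinated cargo into autophagosomes. It was at 360.8 and 384.5 CPM in WT stiff and 749.7 and 730 CPM in WT soft, 1.985-fold higher on soft (log2 difference -0.99, SE 0.07, adjusted p = 4.125e-05).

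**Figure D2:**
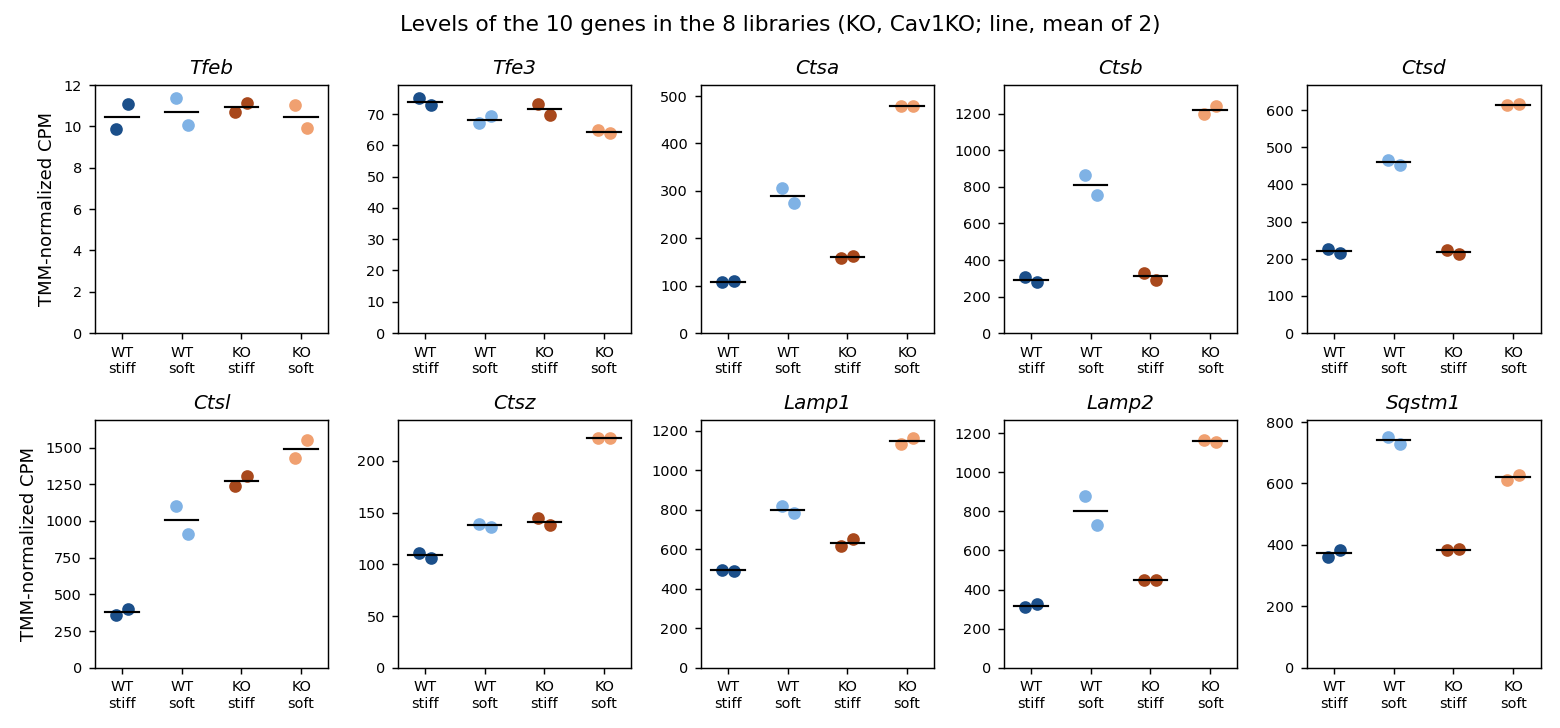
TMM-normalized CPM of each member in the 8 libraries (points, 2 a group) with the group mean (line), on linear axes that start at 0 and differ between genes. Both soft libraries lay above both stiff libraries of the same genotype for the 8 lysosome and autophagy genes, whereas the 4 groups overlapped for Tfeb.

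Cav1KO MEFs were also lower on the stiff gel for 7 of the 10 members, none was higher, and 28.2% of all genes tested were called lower and 27.9% higher. The 8 genes had a median log2 difference of -1.11 here, against -0.02 for all genes. Their summed level was 3538 and 3597 CPM in Cav1KO stiff and 6852 and 7060 CPM in Cav1KO soft. The substrates did not overlap for any of the 8, nor for Tfe3, and the share of all genes without overlap was not counted. Ctsl was the gene of the 8 that did not pass.

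Ctsb had the largest difference of the 8 in Cav1KO, at 329.3 and 292.3 CPM on stiff against 1202 and 1246 CPM on soft. Its mean was 3.937-fold higher on soft (log2 difference -1.98, SE 0.09, adjusted p = 8.36e-06). Ctsa was at 157.3 and 162.2 CPM on stiff and 479 and 480 CPM on soft, a log2 difference of -1.58 (adjusted p = 7.547e-06). Ctsd was at 223.4 and 212.4 CPM on stiff and 612.9 and 615.8 CPM on soft, a log2 difference of -1.49 (adjusted p = 7.547e-06). The replicates of these 3 genes were close to each other on the soft gel. Ctsz was at 144.5 and 137.9 CPM on stiff and 222.6 and 221.9 CPM on soft, a log2 difference of -0.65 (adjusted p = 8.373e-05).

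Lamp1 in Cav1KO was at 614.7 and 651.3 CPM on stiff and 1131 and 1162 CPM on soft (log2 difference -0.86, adjusted p = 3.261e-05). Lamp2 was at 446.7 and 451.1 CPM on stiff and 1166 and 1156 CPM on soft (log2 difference -1.37, adjusted p = 1.713e-05). Sqstm1 was at 382.6 and 385.5 CPM on stiff and 612.1 and 628.6 CPM on soft (log2 difference -0.69, adjusted p = 6.952e-05). Of these 3 genes, Lamp2 thus had the largest difference, as it had in WT.

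**Figure D3:**
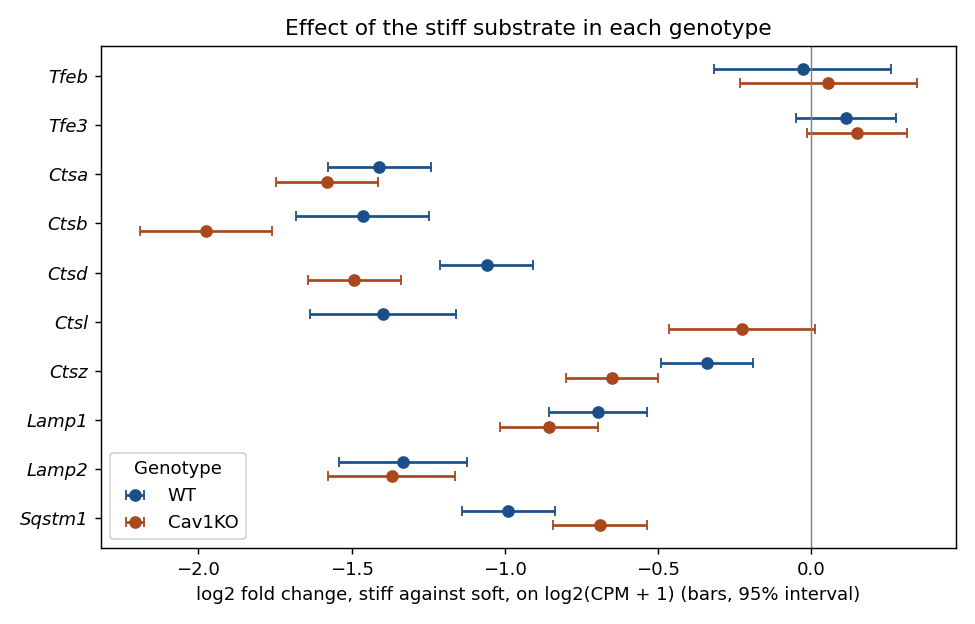
Log2 difference between stiff and soft for each member, on log2(CPM + 1), in WT (blue) and Cav1KO (brown), with 95% intervals from the limma fit. Points left of 0 were higher on the soft gel; the genotypes lay farthest apart for Ctsl, at -1.40 in WT and -0.23 in Cav1KO.

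The substrate effect differed between genotypes for Ctsl above all. Ctsl was at 1240 and 1304 CPM in Cav1KO stiff and at 1427 and 1550 CPM in Cav1KO soft, so that it was high on both substrates. The stiff minus soft difference in Cav1KO was -0.23 (95% interval -0.46 to 0.01, adjusted p = 0.09576), and -0.48 with an adjusted p of 0.002346 after quantile normalization. The difference between the WT and the Cav1KO effects was -1.17 (SE 0.15, interaction adjusted p = 0.005711), called in each of 18 alternative analyses. In all, the interaction was called for 3 of the 10 members, against 10.5% of all genes tested. With 1 library left out at a time that share ranged from 0.744% (without Cav1KO soft replicate 1) to 27.7% (without Cav1KO stiff replicate 1), and it was 3.03% or less without Cav1KO stiff replicate 2, Cav1KO soft replicate 2, WT stiff replicate 1 or either WT soft library. GENCODE M21 places an antisense gene, Gm47123, and a pseudogene, Gm49230, on sequence of Ctsl, and 25.63% of its 60-base windows were shared with other genes. Neither name was found in the deposited table, and the library kit was not stated to keep strand. Reads from the shared windows thus cannot be assigned to Ctsl or to another gene, whereas the other windows were found in Ctsl only.

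Ctsb and Ctsd differed in the opposite direction, with a larger substrate effect in Cav1KO than in WT. The difference was 0.51 for Ctsb (SE 0.13, adjusted p = 0.04725) and 0.43 for Ctsd (SE 0.09, adjusted p = 0.03216). These calls were close to the threshold: the Ctsb call held in 7 of 18 alternatives and the Ctsd call in 11 of 18. With 1 library left out at a time, the Ctsb call held without Cav1KO stiff replicate 1 and was lost without any of the other 7 libraries, with differences from 0.42 to 0.61. The Ctsd call held without WT stiff replicate 2 or without Cav1KO stiff replicate 1 and was lost without any of the other 6, and the difference ranged from 0.39 to 0.47 over the 8 omissions. Windows shared with other genes made up 31.93% for Ctsd, through Gm49369 on the same strand, and 11.95% for Ctsb, through Fdft1 on the opposite strand. Fdft1 itself ranged from 58.56 to 98.97 CPM, and its own interaction was called (-0.89, adjusted p = 0.004569). Shared windows also made up 15.15% for Sqstm1 (with Mrnip), 10.43% for Ctsa (with Pltp and Neurl2) and 5.163% for Lamp1 (with Grtp1). These partners lie on the opposite strand.

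The interaction was not called for the other 7 members. For Ctsz it was 0.31 (adjusted p = 0.06214) and for Sqstm1 -0.30 (adjusted p = 0.07299). Lamp1 had 0.16 (adjusted p = 0.27), Ctsa 0.17 (adjusted p = 0.265), and Lamp2 0.04 (adjusted p = 0.8614). With 4 residual degrees of freedom, a missed threshold does not show that the effects were alike.

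The make-up of the cathepsin signal restates the levels above as shares of their sum, so it is no separate evidence. Ctsl made up 32.52 and 35.99% of the summed CPM of Ctsa, Ctsb, Ctsd, Ctsl and Ctsz in WT stiff, 38.22 and 36.07% in WT soft, and 36.19 and 37.67% in Cav1KO soft. In Cav1KO stiff it made up 59.2 and 61.84%. Ctsb made up 25.21 to 30.47% in the 6 other libraries and 15.73 and 13.86% in Cav1KO stiff. Its own level on stiff overlapped between genotypes, at 306.3 and 279.3 CPM in WT and 329.3 and 292.3 CPM in Cav1KO. The lower Ctsb share thus follows from the larger sum. These shares weigh each gene by its transcript length as well as its abundance, and were not tested.

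**Figure D4:**
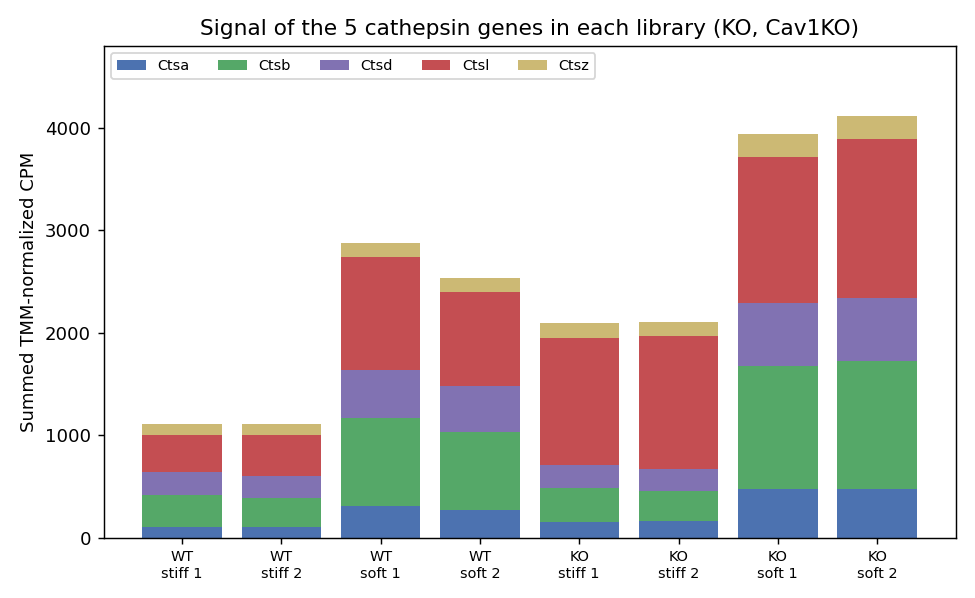
Summed TMM-normalized CPM of the 5 cathepsin genes in each library, stacked by gene, on an axis that starts at 0. Ctsl (red) took 59.2 and 61.84% of the sum in the 2 Cav1KO stiff libraries and 32.52 to 38.22% in the other 6.

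Most of the 8 genes were also higher in Cav1KO than in WT MEFs on the same substrate. These comparisons use the same libraries as those between substrates and are not independent of them. On the stiff gel 5 of the 10 members were higher in Cav1KO and none lower, against 25.0% higher and 26.6% lower of all genes. Ctsl had the largest difference (log2 1.74, SE 0.10, adjusted p = 3.165e-06), followed by Ctsa (0.56, adjusted p = 0.0003231) and Lamp2 (0.50, adjusted p = 0.001998). Ctsz (0.37, adjusted p = 0.001641) and Lamp1 (0.36, adjusted p = 0.002807) had smaller ones. Ctsb, Ctsd and Sqstm1 had differences of 0.08, -0.01 and 0.04 on the stiff gel, and their WT and Cav1KO libraries overlapped. The wider lists described below were mixed between genotypes. Of 36 hydrolase genes 12 were higher and 8 lower in Cav1KO on stiff, and of 18 membrane and transporter genes 9 and 4. The counts were 5 and 3 of 18 for the vacuolar ATPase and 4 and 2 of 9 for sorting. For autophagy they were 5 and 3 of 30, and for the MiT-TFE and nutrient-sensing list 2 and 6 of 20.

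On the soft gel 7 members were higher in Cav1KO and 1 lower, against 24.1% higher and 29.9% lower of all genes. Ctsa (0.73, adjusted p = 6.254e-05), Ctsz (0.68, adjusted p = 4.782e-05) and Ctsb (0.60, adjusted p = 0.0008499) had the largest differences. Ctsl (0.57, adjusted p = 0.001867), Lamp2 (0.54, adjusted p = 0.001255), Lamp1 (0.52, adjusted p = 0.0003289) and Ctsd (0.42, adjusted p = 0.0008773) were also higher. Sqstm1 was the member that was lower, at -0.25 (SE 0.07, adjusted p = 0.01205). That call held in 14 of 18 alternatives. It was lost without WT soft replicate 1, Cav1KO soft replicate 1 or Cav1KO soft replicate 2, where the differences lay from -0.27 to -0.23, and after quantile normalization the difference was -0.06 (adjusted p = 0.3963). The 3 listed macrophage markers, given above, were also at their highest in Cav1KO, and their part in these differences was not tested. In the wider lists on soft, 14 of 36 hydrolase genes were higher and 7 lower in Cav1KO, and of 18 membrane and transporter genes 3 and 2. The counts were 3 and 9 of 18 for the vacuolar ATPase and 6 and 2 of 9 for sorting. For autophagy they were 7 and 8 of 30, and for the MiT-TFE and nutrient-sensing list 0 and 8 of 20. On both substrates some list counts moved under the alternatives.

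Set in order, the group levels ran WT stiff, Cav1KO stiff, WT soft and Cav1KO soft for Ctsa, Lamp1 and Lamp2, with no overlap between neighbours. Ctsb had the same order of means, but its WT stiff and Cav1KO stiff libraries overlapped. Ctsd had overlapping stiff groups as well, with WT soft and Cav1KO soft above them. For Ctsz the WT soft libraries (139.4 and 136.3 CPM) and the Cav1KO stiff libraries (144.5 and 137.9 CPM) overlapped. Ctsl alone of the 8 had both Cav1KO stiff libraries above both WT soft libraries, and Sqstm1 alone had WT soft as its highest group.

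The wider lysosomal and autophagy machinery was compared by lists of genes chosen for their function. Of all genes tested, 26.3% were called lower and 22.1% higher on stiff in WT, and 28.2 and 27.9% in Cav1KO. The share of all genes lower in both genotypes was not counted. Hydrolases and their activators were mostly lower on stiff: of 36 tested, 31 were lower on stiff in WT and none higher, and 31 were lower and 1 higher in Cav1KO, with 30 lower in both. The list's median log2 difference was -1.02 in WT and -0.91 in Cav1KO. Gm2a, the GM2 ganglioside activator, had the largest fall in Cav1KO, from 96.98 and 97.35 to 22.42 and 20.22 CPM (log2 -2.14, adjusted p = 1.326e-05). Hyal2, a hyaluronidase, was the one that rose on stiff in Cav1KO (log2 0.29, adjusted p = 0.03302). That call held in 12 of 18 alternatives and was lost without Cav1KO stiff replicate 2, Cav1KO soft replicate 1 or Cav1KO soft replicate 2 (adjusted p up to 0.1664).

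Of the other cathepsins and lysosomal proteases 6 were listed, and 5 of them were lower on stiff in both genotypes, with medians of -1.33 in WT and -1.25 in Cav1KO. Ctsf, a cysteine cathepsin, was at 4.922 and 5.529 CPM in WT stiff and 25.19 and 23.54 CPM in WT soft (log2 -2.03, adjusted p = 7.3e-05). Tpp1, the tripeptidyl peptidase, had log2 differences of -1.53 in WT (adjusted p = 4.086e-05) and -1.35 in Cav1KO (adjusted p = 2.615e-05). Lgmn, which encodes legumain, had -1.12 (adjusted p = 3.851e-05) and -1.14 (adjusted p = 1.437e-05).

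Genotype split this list differently from the substrate. Ctsc, whose product activates serine proteases of immune cells, was at 16.27, 16.53, 15.04 and 13.49 CPM in the 4 WT libraries and had 0, 1, 0 and 0 reads in the 4 Cav1KO libraries. It was the listed protease that did not pass between substrates. Ctsf, Ctsh and Ctso were lower in Cav1KO than in WT on both substrates as well, with log2 differences on soft of -2.24, -2.47 and -1.46. Their adjusted p-values were 1.217e-05, 3.47e-06 and 0.0002106. Tpp1 was higher in Cav1KO on stiff (log2 0.43, adjusted p = 0.00769), a call lost without WT stiff replicate 2 (0.35, adjusted p = 0.05018). Lgmn was higher in Cav1KO on soft (log2 0.20, adjusted p = 0.04343), which held in 10 of 18 alternatives. That call was lost without either WT stiff library or any 1 of the 4 soft libraries. Without a WT stiff library the difference stayed at 0.20, and only the error shared by all groups changed. Among the members, Ctsl was higher in Cav1KO on both substrates. Ctsh and Ctso were named after their values were seen, to complete the list.

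Of membrane proteins and transporters, 15 of 18 were lower on stiff in WT, 13 of 18 were lower in Cav1KO and none was higher in either. Of all genes, 26.3% were lower in WT and 28.2% in Cav1KO. Ctns, the cystine exporter, fell most in WT (log2 -1.87, adjusted p = 4.417e-05), and Npc2, which binds cholesterol in the lumen, fell most in Cav1KO (log2 -1.50, adjusted p = 2.809e-05). Hgsnat, which acetylates heparan sulfate, was lower on stiff in WT (log2 -0.49, adjusted p = 0.001379) and had 0.11 in Cav1KO (adjusted p = 0.2663). That difference between genotypes was called (log2 -0.60, adjusted p = 0.02243) in 12 of 18 alternatives. The channel gene Tpcn1 differed the other way (0.84, adjusted p = 0.03036), with -0.21 in WT (adjusted p = 0.1981) and -1.04 in Cav1KO (adjusted p = 0.0001876), and was called in 11 of 18 alternatives. The Hgsnat call and the Tpcn1 call were lost without WT stiff replicate 1, Cav1KO stiff replicate 2 or any 1 of the 4 soft libraries, and that of Tpcn1 also without WT stiff replicate 2 (adjusted p up to 0.1291).

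The vacuolar ATPase is the proton pump of the lysosome. Of its 18 listed subunit genes, 12 were lower on stiff and none higher in WT, against 26.3 and 22.1% of all genes. In Cav1KO 9 were lower and 2 higher, against 28.2 and 27.9% of all genes. Without WT soft replicate 1 the count of 12 was 6, and the 2 were none without Cav1KO stiff replicate 2, Cav1KO soft replicate 1 or Cav1KO soft replicate 2. Medians were -0.44 and -0.31. Atp6ap2, an accessory subunit, fell most in WT (log2 -1.03, adjusted p = 6.748e-05), and Atp6v0d1 fell most in Cav1KO (log2 -0.92, adjusted p = 9.244e-05). The cystatins, inhibitors of cysteine cathepsins, were lower as well: Cst3 and Cstb, the 2 listed, were lower on stiff in both genotypes. The Cst3 call in Cav1KO was lost after median centring (-0.31, adjusted p = 0.06621), and without Cav1KO stiff replicate 1 (-0.29) or Cav1KO soft replicate 2 (-0.34). Cst3 was at 264.4 and 313.3 CPM in WT stiff and 555.5 and 481.5 CPM in WT soft (log2 -0.84, adjusted p = 0.0005259).

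Genes of mannose 6-phosphate sorting, which carries new hydrolases to the lysosome, were mixed in WT: of 9, 3 were lower and 1 higher on stiff, against 26.3 and 22.1% of all genes. In Cav1KO 5 were lower and 1 higher, against 28.2 and 27.9% of all genes. The count of 3 was 1 without WT soft replicate 1, and the gene higher in WT was not called without either WT stiff library or any 1 of the 4 soft libraries. That gene, Gga3, was also not called with DESeq2 on recovered reads (adjusted p = 0.05824). Its WT difference stayed at 0.42 without either Cav1KO soft library, where only the error shared by all groups changed. Igf2r, the larger sorting receptor, was at 54.74 and 45.32 CPM in WT stiff and 45.56 and 46.21 CPM in WT soft (adjusted p = 0.5287). In Cav1KO Igf2r was at 68.03 and 50.04 CPM on stiff and 123 and 119.9 CPM on soft. Its difference between genotypes in the substrate effect was called (log2 1.16, adjusted p = 0.01774). That call was lost without WT stiff replicate 1 or without any 1 of the 4 soft libraries (adjusted p up to 0.1). M6pr, the smaller receptor, rose on stiff in Cav1KO (log2 0.35, adjusted p = 0.01133). That call was lost after quantile normalization (0.19, adjusted p = 0.06769), and without Cav1KO stiff replicate 2 (0.23) or Cav1KO soft replicate 2 (0.29). Sort1, encoding sortilin, was at 1.083 to 1.692 CPM in WT and at 5.974 to 12.91 CPM in Cav1KO, higher than in WT on stiff (log2 1.63, adjusted p = 5.645e-05) and on soft (2.27, adjusted p = 7.669e-06).

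Autophagy receptors and machinery had 17 of 30 genes lower on stiff in WT and none higher, against 26.3 and 22.1% of all genes. In Cav1KO 20 were lower and 5 higher, against 28.2 and 27.9% of all genes, and 15 were lower in both genotypes. Calcoco1, another autophagy receptor, fell most in both genotypes (log2 -1.42 in WT, adjusted p = 3.471e-05, and -2.04 in Cav1KO, adjusted p = 6.88e-06). Map1lc3b, which encodes the LC3 protein of autophagosome membranes, was at 60.06 and 62.7 CPM in WT stiff and 173 and 137.3 CPM in WT soft. It was at 190.4 and 217.8 CPM in Cav1KO stiff and 435.2 and 443.5 CPM in Cav1KO soft, higher than in WT on stiff (log2 1.71, adjusted p = 5.328e-06) and on soft (1.51, adjusted p = 1.129e-05). Atg5, part of the conjugation machinery, rose on stiff in Cav1KO (log2 0.58, adjusted p = 0.001146). The count of 5 was 2 or 3 without Cav1KO stiff replicate 2, Cav1KO soft replicate 1 or Cav1KO soft replicate 2.

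Since Sqstm1 is also a known target of the antioxidant factor NRF2, 11 other NRF2 targets were listed. In WT 4 were higher and 3 lower on stiff, against 22.1 and 26.3% of all genes. In Cav1KO 8 were higher and none lower, against 27.9 and 28.2% of all genes. The list's medians were -0.11 in WT and 0.56 in Cav1KO. Sqstm1 was lower on stiff in both genotypes. The 3 targets lower in WT were Ftl1 (log2 -0.74), Fth1 (-0.66) and Nqo1. A part of NRF2 in the level of Sqstm1 was not tested. Gsr, glutathione reductase, rose most in both genotypes, from 92.56 and 104.3 CPM on soft to 196.3 and 203 CPM on stiff in WT (log2 1.02, adjusted p = 8.323e-05) and by 1.70 in Cav1KO (adjusted p = 9.787e-06). Nqo1, a quinone reductase, was lower on stiff in WT (log2 -0.77, adjusted p = 0.0005731) and higher in Cav1KO (0.56, adjusted p = 0.002314). The interaction was called for 7 of these 11 genes, against 10.5% of all genes, all with a larger stiff minus soft difference in Cav1KO. That count fell to between 1 and 4 without WT stiff replicate 1, Cav1KO stiff replicate 2 or any 1 of the 4 soft libraries.

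**Figure D5:**
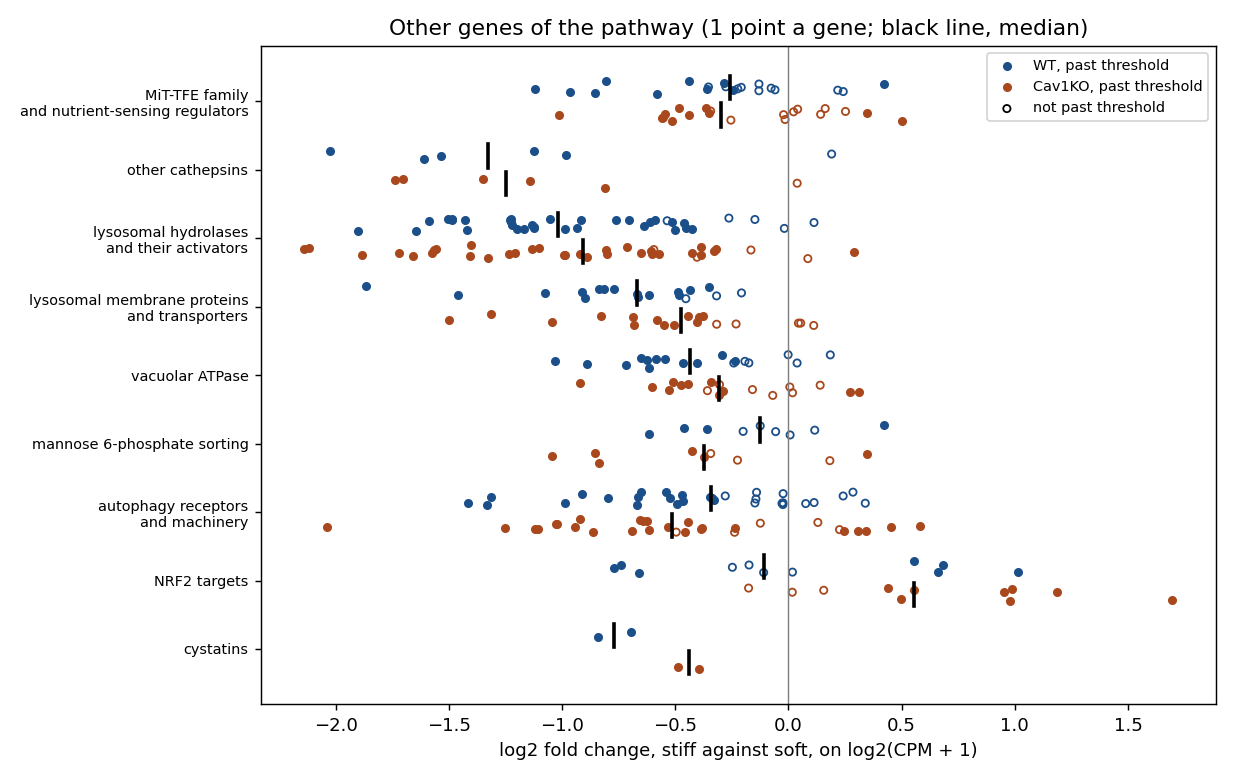
Log2 difference between stiff and soft, on log2(CPM + 1), for each tested gene of 9 lists in WT (blue) and Cav1KO (brown); filled points passed the threshold of 0.05 and black lines are medians. Hydrolases had medians of -1.02 and -0.91, whereas NRF2 targets had -0.11 and 0.56.

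A further list joins other members of the MiT-TFE family with regulators of nutrient sensing on the lysosome. In WT 9 of its 20 genes were lower on stiff and 1 higher, against 26.3 and 22.1% of all genes. In Cav1KO 8 were lower and 2 higher, against 28.2 and 27.9% of all genes, and 5 were lower in both genotypes. Among genes with a mean of at least 5 CPM, Fnip1, whose product acts with folliculin on the Rag GTPases, fell most in both (log2 -0.97 in WT, adjusted p = 0.0003572, and -1.02 in Cav1KO, adjusted p = 0.0001898). Mtor, the kinase of mTORC1, was at 43.14 and 36.94 CPM in WT stiff and 29.61 and 29.45 CPM in WT soft (log2 0.42, adjusted p = 0.03763). This call held in 12 of 18 alternatives. It was lost without WT stiff replicate 1 (0.31) or without any 1 of the 4 soft libraries. Leaving out a Cav1KO soft library did not change the WT difference itself (0.42), only its error, which all groups share. The count of 9 in WT was 5 without WT soft replicate 1, and the count of 8 in Cav1KO was 4 or 5 without Cav1KO stiff replicate 2, Cav1KO soft replicate 1 or Cav1KO soft replicate 2. Mtor had -0.34 in Cav1KO (adjusted p = 0.06862). Rheb, an activator of mTORC1, rose on stiff in Cav1KO (log2 0.50, adjusted p = 0.003476). Mitf, the other listed MiT-TFE member, was at 8.177 to 14.14 CPM and passed in neither genotype (adjusted p = 0.2707 in WT and 0.1753 in Cav1KO), and Tfec was not listed.

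E-box letters in the promoter windows of the lists are given as a description, beside 8.093% of all genes. They were present for 6 of 19 genes of the MiT-TFE and nutrient-sensing list with a window, 2 of 5 other cathepsins, 7 of 28 hydrolase genes and 3 of 13 membrane and transporter genes. The counts were 4 of 13 for the vacuolar ATPase, 4 of 7 for sorting, 4 of 22 for autophagy, none of 8 for NRF2 targets and none of 1 for cystatins.

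The genes whose levels most resembled those of the regulators over the 8 libraries were Unkl, Acn9 and Mir6240 for Tfeb, with Pearson correlations of 0.90, 0.86 and 0.86 on log2(CPM + 1). For Tfe3 they were Gtpbp4, Cand1 and Ss18, with 0.99 each. These are the highest values among 10064 genes, over libraries that fall into 4 groups, and are given as a description. Gtpbp4 ranged from 59.34 CPM in a Cav1KO soft library to 100.5 CPM in a WT stiff library, in the same direction between substrates as Tfe3. In the same libraries the correlation of Tfe3 with the 8 lysosome and autophagy genes ran from -0.96 for Lamp1 to -0.74 for Ctsl, and that of Tfeb from -0.14 for Ctsd to 0.20 for Ctsl.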

How the data were processed

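Poly(A) RNA of 8 MEF libraries (4 groups of 2) was sequenced as 60-base single reads from NEBNext Ultra libraries. The submitters' processing notes name CASAVA 1.8.2, cutadapt, RSEM 1.2.3 and GRCm38. The authors deposited 1 table of signal values, TMM-normalized CPM, with 1 column a library. Every value was a whole multiple of its library's step (tolerance 0.01), which gave read counts. The filter on low genes was not given in the sources used here. From the deposited CPM, limma 3.58.1 (R 4.3.3) was fitted with a mean-variance trend on log2(CPM + 1) to all 4 groups, for 12494 genes at 1 CPM or more in at least 2 libraries, with 4 residual degrees of freedom. Two-sided p-values were adjusted across the genes tested (Benjamini-Hochberg), and a call needed an adjusted p under 0.05. Fold changes on this scale understate those of low genes. The interaction was the WT effect minus the Cav1KO effect. Alternatives were other pseudocounts, filters and scalings, no trend, edgeR 4.0.16 and DESeq2 1.42.0 on recovered reads, a replicate block and leaving out each library. The procedure was first run on simulated counts, with the same spread set for all genes and changes placed in WT stiff only. That setting is simpler than these data, so it gives no measure of error here.

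Members and lists were chosen with earlier results of these data known. Within each list and comparison, genes named were the largest rise and fall past the threshold, with a mean of at least 5 CPM and no overlap between groups; not all are described, and 1 is not reported here. Positions come from GENCODE M21, which matched 99.39% of listed genes, and promoter sequences from RefSeq (GRCm38.p6). For 78 rows no symbol was given.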

Additional observations from a re-analysis of the deposited data

Results flagged for a closer look

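The difference between the substrate effects in WT and in Cav1KO passed the interaction test for 3 members. For Ctsl it was -1.17 on the log2 scale, with means of 380.2 CPM on stiff and 1006 CPM on soft in WT, and of 1272 and 1488 CPM in Cav1KO. For Ctsb it was 0.51 and for Ctsd 0.43, where the gap between soft and stiff was larger in Cav1KO than in WT. Ctsb had means of 292.8 CPM on stiff and 810.7 CPM on soft in WT, and of 310.8 and 1224 CPM in Cav1KO. Ctsd had means of 220 and 459.7 CPM in WT, and of 217.9 and 614.4 CPM in Cav1KO. With 2 libraries a group, no group was large enough for a check of outlying libraries.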

How the results depend on the processing

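Of the counts of called members under the 18 alternatives, 82 stayed within 1.5 times the count reported. The other 8 concerned the interaction, called for 3 members: quantile normalization gave 5, no mean-variance trend gave 1, and leaving out 1 library at a time gave 1 to 4. The cause was not tested. Of the member fold changes, 855 kept direction and call, 22 lost and 5 gained a call. Counts over the pathway lists moved by over 1.5 times in 223 of the recomputed counts and did not in 1397, most often for the interaction. The 18 that turned were member fold changes that were not called. With 1 library left out at a time, the Tfeb difference between substrates ranged from -0.1088 to 0.0529 in WT and from -0.0139 to 0.1252 in Cav1KO, and its genotype difference from -0.0172 to 0.1295 on stiff and from -0.1083 to 0.0534 on soft. The interaction ranged from -0.0704 to 0.0026 for Tfe3 and from -0.0956 to 0.1688 for Lamp2. On stiff, the genotype difference ranged from -0.0008 to 0.1705 for Ctsb, from -0.0509 to 0.0229 for Ctsd and from -0.0016 to 0.0900 for Sqstm1. Median centring turned Tfeb in WT to 0.0145, the Lamp2 interaction to -0.0079, and the genotype differences on stiff of Tfe3 to 0.0090 and of Ctsd to 0.0417. Quantile normalization turned Tfeb in WT to 0.14, and DESeq2 turned the Ctsd genotype difference on stiff to 0.0009.

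Correlations of same-numbered deviations ranged from -0.37 (WT stiff with WT soft) to 0.42 (WT stiff with Cav1KO stiff). Whether the replicate numbers pair the libraries cannot be told from these values. A replicate block fits a common shift for each number, so it does not remove deviations of opposite sign. With the replicate block, 8 members were called in WT, 7 in Cav1KO, 3 for the interaction, and 5 on stiff and 8 on soft between genotypes, the same counts as without it. With 2 libraries a group, small differences such as those of Tfe3 cannot be resolved, and the low depth on Tfeb limits its intervals.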
